A study of Mus musculus with 3 samples.

Results

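The ligands, antagonists, receptors, Smad proteins and Id target genes of TGF-beta and BMP signalling were examined in mouse midbrain. The rule that picks them uses gene symbols and no measured value, although it was written with earlier results of these data known, and 58 of the 49585 genes listed in the count tables matched. The 3 libraries were made from total RNA of C57BL/6 mice at postnatal day 3. There were 2 libraries of genotype FGR, called here FGR replicates 1 and 2, and 1 library of wild-type (WT) mice. The labels do not spell out FGR and name no allele, transgene or treatment, and they do not say whether the FGR libraries came from separate animals. P-values therefore measure only the spread between these libraries, which may be technical. With 1 WT library, its spread had to be taken from the FGR pair, and genotype cannot be told apart from whatever else set that library apart, such as litter or dissection. The fitted spread of each gene was also moderated towards that of genes in general. P-values and standard errors therefore do not rest on a gene's own FGR pair alone.

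Members of this family are secreted dimers that bring together type II and type I receptor kinases on the receiving cell. TGF-beta and activin-type ligands lead mainly to phosphorylation of Smad2 and Smad3, and BMP-type ligands to that of Smad1, Smad5 and Smad9, all of which act with Smad4 in the nucleus. Id genes, which encode inhibitors of basic helix-loop-helix transcription factors, are classical BMP targets, and Smad6 and Smad7 feed back on the receptors. In the developing brain BMP ligands come largely from the dorsal midline, choroid plexus and meninges, and the pathway influences dorsal patterning, astrocyte formation and vessel maturation.

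Total counts were 58444481 and 46240262 in the FGR libraries and 52874311 in the WT library. Differences were tested with edgeR's quasi-likelihood F test, two-sided, and a gene is described as called, risen or fallen where its Benjamini-Hochberg adjusted p over all 25561 genes tested was under 0.05. The libraries also differed in markers of neighbouring tissue. Of 14 genes marking hypothalamus and ventral forebrain, 11 fell, and their summed level was 7.40 and 7.81 CPM (counts scaled to library size) in FGR, against 58.7 CPM in WT. Of 12 midbrain genes, 6 rose, with summed levels of 508.3 and 436.5 CPM in FGR and 331.6 CPM in WT. Of 9 hindbrain genes, 6 were tested and 5 rose, with sums of 12.1 and 12.5 CPM in FGR and 1.23 CPM in WT, where Hoxa3, Hoxb2, Hoxa4 and Hoxb4 were at 0. DESeq2, a second test, called 4 of the hypothalamic, 3 of the midbrain and 2 of the hindbrain genes. It gave no adjusted p for many hypothalamic and hindbrain genes, which it could not call. In a robust edgeR fit Tfap2b and Hoxb3 were no longer called, and Hoxb2 was. The part of these marker differences in the results below was not tested.

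Per transcript length, the most abundant genes of the pathway were mainly Id genes, receptors and Smads, and most ligands were scarce. Of the 58 genes, 13 had a mean level of at least 10 RPKM (reads per kilobase of transcript, scaled by the authors to library total) over the 3 libraries, 38 had at least 1 RPKM and 7 had under 0.1 RPKM. Id4 was the most abundant, at 72.6 and 65.7 RPKM in FGR and 57.8 RPKM in WT. Id2 followed with 27.0 and 37.2 RPKM in FGR and 30.8 RPKM in WT. The activin receptors came next: Acvr2a had 26.2 and 23.0 RPKM in FGR and 22.2 RPKM in WT, and Acvr1b had 23.9 and 22.7 RPKM in FGR and 20.8 RPKM in WT. Apart from Gdf1 and the inhibin subunit gene Inha, no ligand gene reached a mean of 10 RPKM. Some receptors and Smads were scarce too, with means of 0.32 RPKM for Acvr1c and 0.58 RPKM for Smad6. Id2 lay above Acvr2a, and Acvr2a above Acvr1b, in each of the 3 libraries, although the ranges of Acvr2a and Acvr1b over the libraries overlapped.

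**Figure D1:**
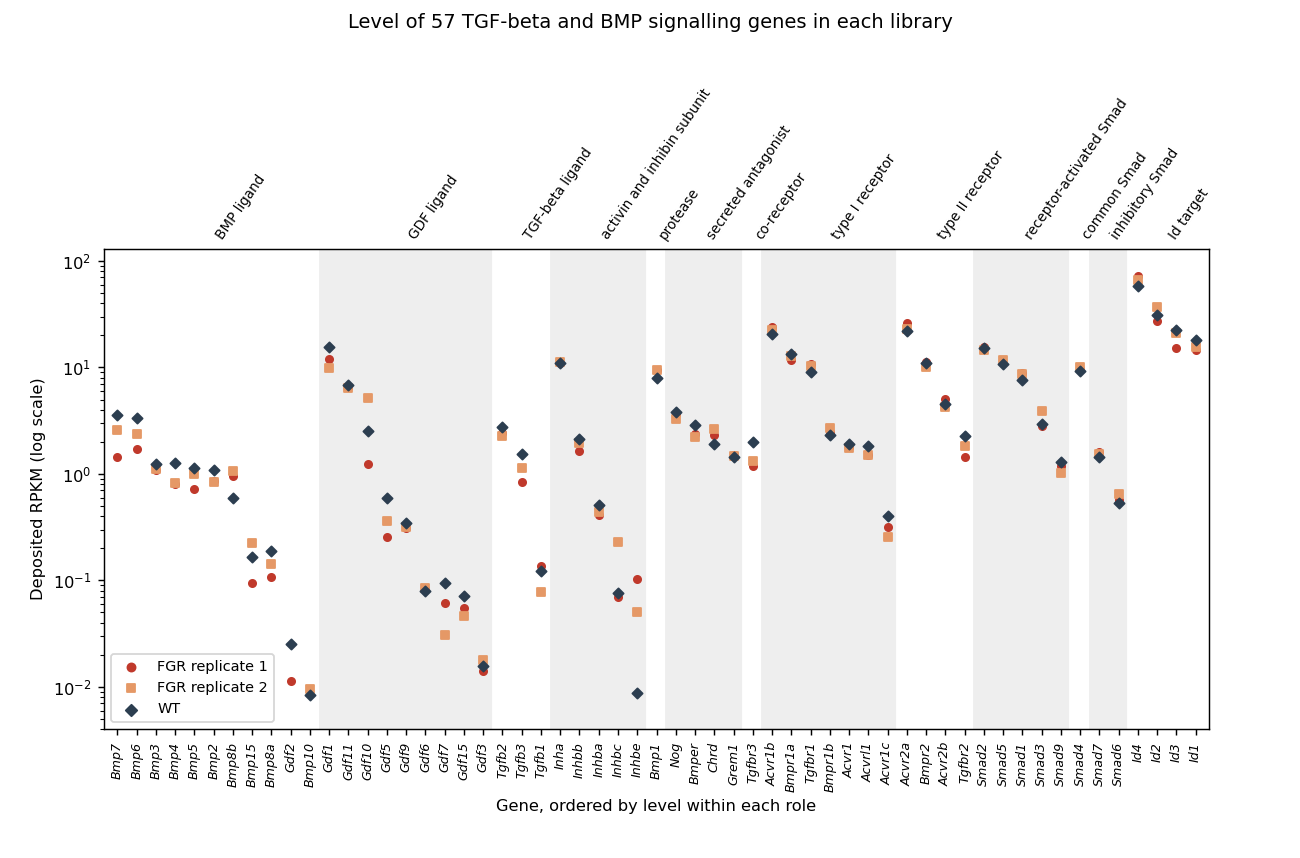
Deposited RPKM (vertical log axis) of 57 of the 58 genes in both FGR libraries and the WT library, grouped by role. Id4 is highest in every library, and a library in which a gene has no reads (Bmp10 in FGR replicate 1, Gdf2 in FGR replicate 2) has no point.

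Of the 58 genes, 53 passed the filter on low counts, and 5 were not tested because no library held more than 7 counts of them. Bmp8b, Id4 and Tgfbr1 rose in FGR midbrain and Tgfbr3 fell, so that 4 of the 53 (7.55%) were called, against 4.25% of all genes tested. The 3 that rose are 5.66% of the 53, against 1.66% of all genes called higher, and the 1 that fell is 1.89%, against 2.59% called lower. Both FGR libraries lay above WT for 17 genes and below it for 27, and WT lay between them for the other 9. Over all 25561 genes tested these counts were 9845, 9758 and 5958. The median log2 fold change (FGR over WT) was -0.08 over the 53 genes and 0.01 over all genes tested. At an unadjusted p under 0.05 there were 18 genes, 8 higher and 10 lower in FGR, which is 34.0% of the 53 against 18.3% of all genes tested. Of all 25561 genes tested, 2150 were higher and 2535 lower in FGR at that unadjusted p.

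The called genes depended on the method. DESeq2 called none of the 53, with a lowest adjusted p of 0.164 and 8 genes (15.1%) at an unadjusted p under 0.05. It gave no adjusted p for 9 of the 53, which it therefore could not call. These were Bmp8a, Bmp15, Gdf5, Gdf6, Gdf9, Tgfb1, Inhba, Inhbc and Inhbe. Over all genes DESeq2 called 1.40%, and 6.90% passed unadjusted. With a stricter filter on low counts edgeR called none of the 46 genes left, with a lowest adjusted p of 0.0587 and 18 genes at an unadjusted p under 0.05, where 2.39% of all genes were called. With limma-voom 5 genes were called (4.24% of all genes), namely Id4 as higher and Bmp6, Bmp7, Gdf1 and Tgfbr3 as lower. With DESeq2 size factors in the edgeR fit 5 were called (4.73% of all genes), with library totals alone 5 (5.32%), with a robust edgeR fit 5 (4.82%) and with no filter 8 of 58 (5.74%). Tgfbr3 was among the called genes in every one of these except DESeq2 and the stricter filter.

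**Figure D2:**
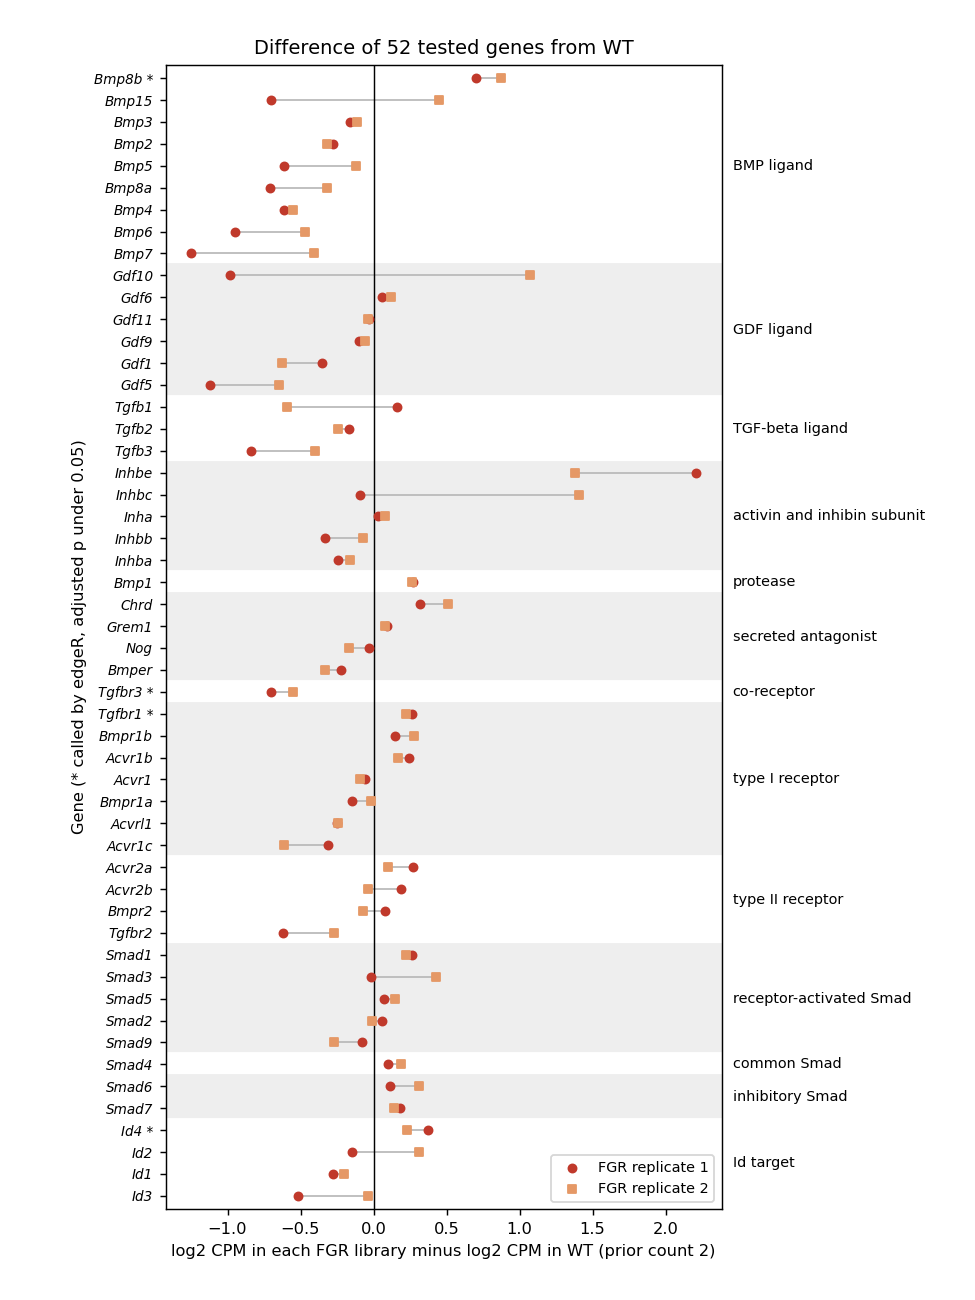
Difference in log2 CPM of each FGR library from the WT library (horizontal axis) for 52 of the 53 tested genes, grouped by role; circles are FGR replicate 1, squares FGR replicate 2, a grey line joins them and asterisks mark the 4 called genes. Ligands lie mostly left of the WT line, and Gdf10 has one FGR library on each side.

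Among the 11 BMP ligand genes, 9 were tested and 7 of these were lower than WT in both FGR libraries, against 9758 of all 25561 genes tested. The summed level of the 11 was 30.3 and 39.0 CPM in FGR and 45.5 CPM in WT, and the median log2 fold change was -0.36. With edgeR none of the 9 fell past the threshold, 3 were lower at an unadjusted p under 0.05 and 1 rose. Of all 25561 genes tested, 2535 were lower at that unadjusted p. DESeq2 called none of the 9 and gave no adjusted p for Bmp8a and Bmp15. With DESeq2 size factors, library totals or no filter in the edgeR fit, and with limma-voom, Bmp6 and Bmp7 were both called lower. Bmp7, which patterns many embryonic organs and is made in the meninges, had 5.90 and 10.6 CPM in FGR, against 14.1 CPM in WT. Both FGR values lay below WT but also far from each other, and the log2 fold change of -0.79 ± 0.23 (SE) had an adjusted p of 0.0724 with edgeR. It was 0.0467 with DESeq2 size factors, 0.0369 with library totals, 6.46e-06 with no filter and 0.0283 with limma-voom, but 0.167 with the stricter filter, 0.662 with the robust edgeR fit and 0.847 with DESeq2. The log2 fold change was -0.42 without FGR replicate 1 and -1.26 without FGR replicate 2, values with no test. Bmp6, known from the liver as the main inducer of hepcidin, had 4.12 and 5.78 CPM in FGR and 7.99 CPM in WT. Its log2 fold change was -0.70 ± 0.19 (edgeR adjusted p = 0.0512). The adjusted p was 0.0358 with DESeq2 size factors, 0.0268 with library totals, 0.000804 with no filter and 0.0391 with limma-voom, but 0.0537 in the robust fit, 0.127 with the stricter filter and 0.353 with DESeq2. Txndc5, which overlaps Bmp6 on the opposite strand, had 55.3 and 55.1 CPM in FGR and 57.6 CPM in WT (edgeR adjusted p = 0.691). Bmp4, a dorsal midline ligand, had 1.79 and 1.86 CPM in FGR and 2.75 CPM in WT, a log2 fold change of -0.59 ± 0.23 (edgeR adjusted p = 0.169).

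The other ligands of this group showed smaller differences or had few reads. Bmp5, a close relative of Bmp6 and Bmp7, had 2.91 and 4.09 CPM in FGR and 4.46 CPM in WT. Bmp2, the nearest relative of Bmp4, had 3.10 and 3.02 CPM in FGR and 3.77 CPM in WT, and Bmp3, a ligand that counters osteogenic BMPs, had 8.10 and 8.38 CPM in FGR and 9.03 CPM in WT. Adjusted p-values (edgeR) were 0.407 for Bmp5, 0.448 for Bmp2 and 0.692 for Bmp3. Bmp15, an oocyte factor, had 17 and 32 counts in FGR and 27 in WT, so the groups overlapped. Bmp8a, known for roles in the male germ line, had 15 and 16 counts in FGR and 24 in WT. Gdf2 (BMP9), a blood-borne ligand for endothelium, had 2 and 0 counts in FGR and 4 in WT, and Bmp10, a heart ligand, had 0 and 2 counts in FGR and 2 in WT.

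Markers of meninges and fibroblasts were also lower in FGR. All 14 genes of that list were lower than WT in both FGR libraries, 11 of them past the threshold with edgeR and 2 with DESeq2, and none was at 0. In the robust edgeR fit only Fn1, Slc13a4 and Crabp2 stayed called. The summed level of the list was 413.8 and 655.5 CPM in FGR and 1022 CPM in WT. FGR replicate 1 was lowest here, and also in the mural, endothelial, astrocyte and microglial sums. Among the tested BMP ligands it was lowest for Bmp3, Bmp4, Bmp5, Bmp6, Bmp7, Bmp8a and Bmp15, but not for Bmp2 or Bmp8b. For Bmp3 and Bmp4 the FGR libraries were close to each other. The 8 mural cell markers summed to 171.0 and 176.9 CPM in FGR and 249.4 CPM in WT, with 3 called lower by edgeR and 2 by DESeq2. The 10 endothelial markers summed to 190.9 and 194.3 CPM in FGR and 231.1 CPM in WT, with 4 called lower by edgeR and 0 by DESeq2. None of the 6 choroid plexus markers was called by edgeR or DESeq2, which gave no adjusted p for Folr1 and Clic6. With edgeR 1 passed an unadjusted p of 0.05. That 1 was Ttr, the transthyretin gene, with 1.26 and 4.24 CPM in FGR and 0.67 CPM in WT (edgeR adjusted p = 0.0561). Kl, Folr1, Clic6 and Kcnj13 were lower than WT in both FGR libraries, and the median log2 fold change of the list was -0.39. The sums were 20.1 and 23.3 CPM in FGR and 21.2 CPM in WT, of which Prlr made up 13.4 and 11.2 CPM in FGR and 11.6 CPM in WT. The part of these markers in the ligand values was not tested, and in bulk tissue fewer cells of a type and less RNA per cell cannot be told apart.

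**Figure D3:**
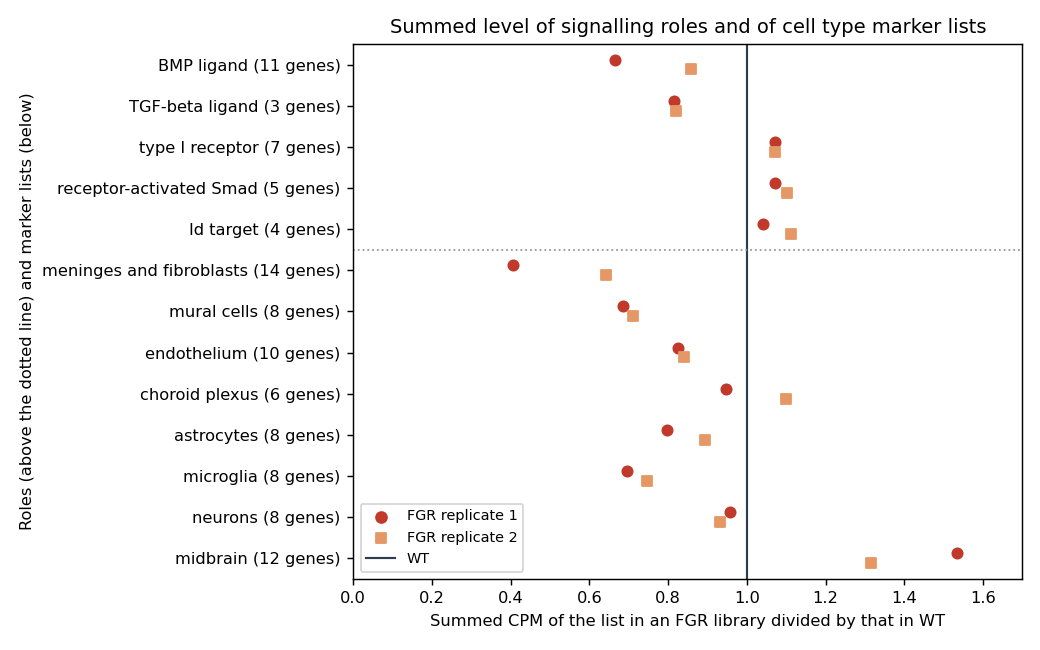
Summed CPM of signalling roles and of cell type marker lists in each FGR library, divided by the WT sum (horizontal axis, linear; the vertical line at 1 is WT). The BMP ligands stand at 0.666 and 0.859 of WT and the meningeal markers at 0.405 and 0.641, while the type I receptors stand at 1.07 in both.

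Bmp8b, best known as a factor of brown fat and hypothalamus, was the 1 BMP ligand gene that rose. It had 3.74 and 4.22 CPM in FGR, against 2.29 CPM in WT, from 217, 193 and 123 counts. Both FGR values were above WT and close together, and the log2 fold change was 0.80 ± 0.20 (edgeR adjusted p = 0.0429). It was not called by DESeq2 (adjusted p = 0.439), limma-voom (0.0701) or with the stricter filter (0.0953). In GENCODE M21 exons of Gm17244 overlap Bmp8b on the opposite strand, and this unclassified transcript had 13.5 and 15.4 CPM in FGR and 8.38 CPM in WT. Its log2 fold change was 0.79 (edgeR adjusted p = 0.00809). Exons of the protein-coding gene Ppie also overlap Bmp8b on the opposite strand. Ppie had 9.43 and 8.69 CPM in FGR and 9.46 CPM in WT (edgeR adjusted p = 0.878). The sources used here do not say whether strand was used in counting. Reads of Bmp8b, Gm17244 and Ppie therefore cannot be told apart where they overlap. The close paralog Bmp8a makes the split of reads between Bmp8a and Bmp8b uncertain as well.

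Among the 9 GDF genes, 6 were tested and edgeR called none, with 2 lower at an unadjusted p under 0.05. DESeq2 also called none and gave no adjusted p for Gdf5, Gdf6 and Gdf9. Gdf1, a left-right patterning ligand, had 16.3 and 13.4 CPM in FGR and 20.8 CPM in WT. Its log2 fold change was -0.48 ± 0.14 (edgeR adjusted p = 0.0640), and it was called lower with library totals (0.0342), no filter (0.00441), limma-voom (0.0377) and the robust edgeR fit (0.0379), but not with DESeq2 size factors (0.0515), the stricter filter (0.0972) or DESeq2 (0.256). Gdf1 shares same-strand exons with the ceramide synthase gene Cers1, which fell, at 29.0 and 24.9 CPM in FGR against 38.3 CPM in WT (log2 fold change -0.51, edgeR adjusted p = 0.0131). The assignment of reads between Gdf1 and Cers1 is therefore uncertain.

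Gdf10, a BMP3-like ligand expressed in glia and around injury, differed more between the FGR libraries than any other of the 53 tested genes. It had 3.12 and 13.0 CPM in FGR, on either side of 6.19 CPM in WT, from 181, 596 and 333 counts. The gap between the FGR libraries was 2.05 on the log2 scale, while the median absolute gap over the 53 tested genes was 0.15. The log2 fold change of 0.37 ± 0.49 had an edgeR adjusted p of 0.756. Among tested genes with a mean of at least 1 CPM, a gap of at least 0.5 was seen for 2, Gdf10 and Bmp7.

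Gdf11, a myostatin relative that restrains neurogenesis, had 26.8 and 26.6 CPM in FGR and 27.4 CPM in WT, nearly equal levels. Gdf5, a joint and dopaminergic trophic factor, had 35 and 39 counts in FGR and 73 in WT, with a log2 fold change of -0.91 ± 0.35 and an edgeR adjusted p of 0.168. Gdf9, an oocyte ligand, had 37 and 30 counts in FGR and 37 in WT, and Gdf6, which acts in eye and joint development, had 17 and 14 counts in FGR and 15 in WT. Gdf7, a roof plate ligand, had 5 and 2 counts in FGR and 7 in WT, so this marker of the dorsal midline was barely detected. Gdf15, a stress-induced hormone, had 6 and 4 counts in FGR and 7 in WT, and Gdf3, an early embryonic ligand, had 2 counts in each library.

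All 3 TGF-beta ligand genes had a negative log2 fold change, none was called by edgeR or DESeq2, and Tgfb3 alone passed an unadjusted p of 0.05 with edgeR. Tgfb2, the most abundant of them per length and a product of neurons, glia and meninges, had 14.1 and 13.4 CPM in FGR and 15.9 CPM in WT. The log2 fold change was -0.21 ± 0.13 (edgeR adjusted p = 0.444). Tgfb3, needed for palate fusion, had 2.86 and 3.89 CPM in FGR and 5.15 CPM in WT, both FGR libraries lying below WT. The fitted log2 fold change was -0.62 ± 0.20 (edgeR adjusted p = 0.107), and -0.41 without FGR replicate 1. Tgfb1, which maintains microglia and is made largely by them, had 40 and 18 counts in FGR and 33 in WT, so the groups overlapped. The 8 microglial markers summed to 97.7 and 104.9 CPM in FGR and 140.4 CPM in WT, with 4 called lower by edgeR and 1 by DESeq2.

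The 5 activin and inhibin subunit genes gave no call with edgeR or DESeq2, and none passed an unadjusted p of 0.05 with either. DESeq2 gave no adjusted p for Inhba, Inhbc and Inhbe. Inha, the alpha subunit of inhibins, had 16.2 and 16.8 CPM in FGR and 15.9 CPM in WT (log2 fold change 0.06 ± 0.13, edgeR adjusted p = 0.866). Inhbb, the activin B subunit, had 7.02 and 8.38 CPM in FGR and 8.82 CPM in WT, and Inhba, the activin A subunit, had 48 and 40 counts in FGR and 53 in WT. The subunit genes Inhbc and Inhbe, mainly known from liver, were scarce. Inhbc had 8 and 21 counts in FGR and 8 in WT. Inhbe had 13 and 5 counts in FGR and 1 in WT, with an edgeR adjusted p of 0.285. With the FGR libraries pooled, the depth-corrected ratio was 9.34. Its 95% interval of 1.475 to 389.2 covers counting error only. Inhbe passed the filter on low counts only through FGR replicate 1, where it was highest. The ratio and its interval are therefore not evidence of a rise. Bmp1, which despite its name is a metalloprotease that cleaves procollagen and the BMP antagonist chordin, had 35.8 and 35.6 CPM in FGR and 29.7 CPM in WT. The FGR values were almost identical, with a log2 fold change of 0.27 ± 0.09 (edgeR adjusted p = 0.112).

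None of the 5 secreted BMP antagonist genes was called by edgeR or DESeq2, and 2 passed an unadjusted p of 0.05 with edgeR. Chrd (chordin), which binds BMPs outside the cell, had 13.8 and 15.7 CPM in FGR and 11.02 CPM in WT, both FGR libraries lying above WT. The log2 fold change was 0.42 ± 0.14 (edgeR adjusted p = 0.118). Nog (noggin), which binds BMPs and keeps them from their receptors, had 6.26 and 5.64 CPM in FGR and 6.37 CPM in WT. Grem1, a gremlin of limb and gut, had 6.26 and 6.23 CPM in FGR and 5.89 CPM in WT. Bmper, a chordin-like modulator expressed in vessels, had 11.6 and 10.8 CPM in FGR and 13.6 CPM in WT.

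Tgfbr3 was the 1 gene that fell. It encodes betaglycan, a co-receptor that presents TGF-beta2 to the signalling receptors and binds inhibin. It had 7.83 and 8.69 CPM in FGR, against 12.7 CPM in WT, from 454, 397 and 684 counts. Both FGR libraries lay below WT and near each other, a 1.54-fold lower level with a log2 fold change of -0.62 ± 0.14 (edgeR adjusted p = 0.0234). The adjusted p was 0.176 with DESeq2 and 0.0587 with the stricter filter. Tgfbr3 is expressed by fibroblasts and mural cells, whose marker sums were also lower in both FGR libraries, and the part of those cells was not tested. A same-strand transcript of unknown kind that overlaps it, Gm43422, had 44 and 48 counts in FGR and 61 in WT.

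Among the 7 type I receptor genes 1 rose. Tgfbr1 encodes ALK5, the kinase through which TGF-beta activates Smad2 and Smad3. It had 70.2 and 68.3 CPM in FGR, against 58.5 CPM in WT, from 4074, 3122 and 3150 counts. The FGR libraries lay close together above WT, with a log2 fold change of 0.24 ± 0.06, a 1.18-fold higher level. The edgeR adjusted p of 0.0476 was just under the threshold. The call was kept in the robust fit and lost in the other 6 alternatives that tested it, at adjusted p-values of 0.0521 with DESeq2 size factors, 0.0525 with no filter, 0.0901 with library totals, 0.0917 with limma-voom, 0.0921 with the stricter filter and 0.422 with DESeq2.

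Acvr1b (ALK4), the activin type I receptor and the most abundant of this class per length, had 106.2 and 101.1 CPM in FGR and 90.03 CPM in WT. Acvr1b had a log2 fold change of 0.20 ± 0.07 (edgeR adjusted p = 0.115). The BMP type I receptors had differences of both signs. Bmpr1a (ALK3) had 75.4 and 82.1 CPM in FGR and 83.5 CPM in WT, and Bmpr1b (ALK6) had 15.0 and 16.3 CPM in FGR and 13.5 CPM in WT. Acvr1 (ALK2), the receptor mutated in fibrodysplasia ossificans progressiva in humans, had 8.71 and 8.49 CPM in FGR and 9.07 CPM in WT. Acvrl1 (ALK1), the endothelial receptor for Gdf2 and Bmp10, had 6.50 and 6.56 CPM in FGR and 7.75 CPM in WT, beside endothelial markers that were lower for 9 of 10 genes. Acvr1c (ALK7), a receptor for nodal and activin B, had 2.95 and 2.38 CPM in FGR and 3.66 CPM in WT, with an edgeR adjusted p of 0.265.

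Of the 4 type II receptor genes edgeR and DESeq2 called none, and 1 was higher and 1 lower at an unadjusted p under 0.05 with edgeR. Tgfbr2, the partner of Tgfbr1 and in brain mainly a gene of vessels, microglia and fibroblasts, had 11.97 and 15.27 CPM in FGR and 18.4 CPM in WT. Its log2 fold change of -0.44 ± 0.15 had an edgeR adjusted p of 0.119, and it was called lower only where no filter was used. So the TGF-beta receptor genes Tgfbr1 and Tgfbr2 had differences of opposite sign. Acvr2a, which binds activins and BMPs, had 149.97 and 132.49 CPM in FGR and 124.0 CPM in WT, with a log2 fold change of 0.19 ± 0.08 (edgeR adjusted p = 0.233), or 0.09 without FGR replicate 1. Exons of Orc4 overlap Acvr2a on the opposite strand, and Orc4 rose. It had 64.1 and 62.7 CPM in FGR and 51.6 CPM in WT (log2 fold change 0.30, edgeR adjusted p = 0.0213). Strand use in counting is not known, so the assignment of reads between Acvr2a and Orc4 is uncertain. Acvr2b, the paralog of Acvr2a, had 19.8 and 16.9 CPM in FGR, on either side of 17.4 CPM in WT. Bmpr2, the BMP type II receptor, had 205.0 and 184.7 CPM in FGR around 193.6 CPM in WT (log2 fold change 0.01 ± 0.08).

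**Figure D4:**
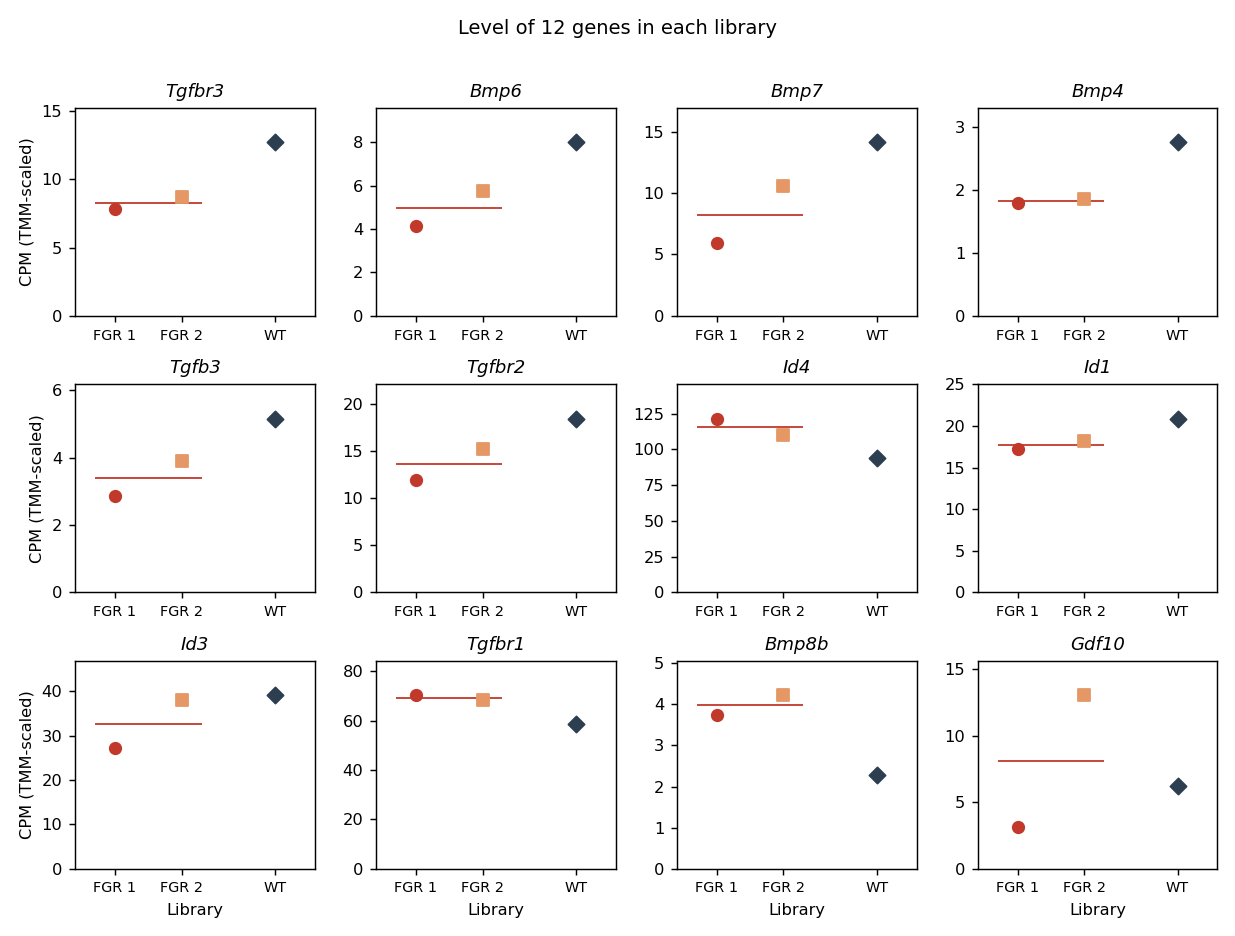
CPM (vertical axes from 0, a scale for each gene) of 12 genes in FGR replicates 1 and 2 and WT; the red line is the FGR mean. For Tgfbr3 both FGR libraries lie below WT, for Id4, Tgfbr1 and Bmp8b both lie above it, and for Gdf10 they lie on either side.

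The 8 Smad genes stayed within a narrow range, with log2 fold changes between -0.17 and 0.24, and edgeR and DESeq2 called none of them. Smad1 alone passed an unadjusted p of 0.05 with edgeR. It transmits BMP signals and had 55.7 and 54.5 CPM in FGR and 46.6 CPM in WT. This gave a log2 fold change of 0.24 ± 0.07 (edgeR adjusted p = 0.0658). The other BMP-type Smads differed less, Smad5 with 82.6 and 87.4 CPM in FGR and 78.8 CPM in WT, and Smad9 with 6.41 and 5.60 CPM in FGR and 6.78 CPM in WT.

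Smad2, the most abundant Smad gene per length, had 55.2 and 52.57 CPM in FGR and 52.98 CPM in WT, overlapping groups with a log2 fold change of 0.03 ± 0.07 (edgeR adjusted p = 0.895). The sign of this value turned with scaling to library totals, where it was -0.014, and without FGR replicate 1, where it was -0.021. Smad3, its partner in TGF-beta and activin signalling, had 15.9 and 21.7 CPM in FGR and 16.1 CPM in WT. Smad4, the common partner, had 35.9 and 38.0 CPM in FGR and 33.4 CPM in WT (log2 fold change 0.14 ± 0.09, edgeR adjusted p = 0.424). The inhibitory Smads are themselves induced by the pathway. Smad7 had 7.26 and 7.04 CPM in FGR and 6.41 CPM in WT (log2 fold change 0.16 ± 0.15, edgeR adjusted p = 0.648), and Smad6 had 1.83 and 2.10 CPM in FGR and 1.69 CPM in WT.

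Among the 4 Id genes, Id4 rose and the others did not pass the test. Id4, which is expressed in neural progenitors and astrocytes, had 121.4 and 110.4 CPM in FGR, against 94.2 CPM in WT, from 7041, 5044 and 5072 counts. Both FGR libraries lay above WT, with a log2 fold change of 0.30 ± 0.08, a 1.23-fold higher level (edgeR adjusted p = 0.0382). It was also called by limma-voom, with DESeq2 size factors, in the robust fit and with no filter, and not by DESeq2 (adjusted p = 0.164), with library totals (0.0615) or with the stricter filter (0.0770). An antisense gene over the same locus, A330033J07Rik, had 24.9 and 20.6 CPM in FGR and 20.8 CPM in WT (log2 fold change 0.13, edgeR adjusted p = 0.654). The 8 astrocyte markers summed to 969.3 and 1088 CPM in FGR and 1216 CPM in WT, but they did not all differ in the same direction. Of them, 5 were lower than WT in both FGR libraries, 1 was higher in both and 2 had WT between them. EdgeR called 3 lower and DESeq2 2, and in the robust edgeR fit only Aqp4 stayed called. The part of astrocytes in the Id4 values was not tested.

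Id1, Id2 and Id3 are widely used as readouts of BMP signalling. Id1, strong in endothelium, had 17.2 and 18.2 CPM in FGR and 20.8 CPM in WT, both FGR values lying below WT (log2 fold change -0.24 ± 0.12, edgeR adjusted p = 0.316). Id3, also a vascular and glial gene, had 27.3 and 38.2 CPM in FGR and 39.1 CPM in WT (log2 fold change -0.26 ± 0.14, edgeR adjusted p = 0.346). Id2, expressed widely in neurons and progenitors, had 34.6 and 47.7 CPM in FGR, on either side of 38.4 CPM in WT (log2 fold change 0.10 ± 0.13, edgeR adjusted p = 0.770). The difference between the response of Id4 and that of the other Id genes was not tested.

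The 250 bases before the transcription start were compared with Smad-type motifs, since Id4, Tgfbr1 and Bmp8b were called and Id2 and Id3 are the relatives of Id4 with an entry. Sequences were taken from RefSeq (GRCm38.p6) for the 41 of 58 genes with an entry. They are written on the strand of the gene, and capitals mark GGCGCC, a GC-rich element of the kind bound by BMP Smads and its own reverse complement, or CAGAC with its reverse complement GTCTG, the Smad box. The windows are chr13:48260866-48261115 (plus strand) for Id4, chr12:25096093-25096342 (minus strand) for Id2, chr4:136143572-136143821 (plus strand) for Id3, chr4:47352972-47353221 (plus strand, the first of 2 starts) for Tgfbr1 and chr4:123104911-123105160 (plus strand) for Bmp8b.
Id4: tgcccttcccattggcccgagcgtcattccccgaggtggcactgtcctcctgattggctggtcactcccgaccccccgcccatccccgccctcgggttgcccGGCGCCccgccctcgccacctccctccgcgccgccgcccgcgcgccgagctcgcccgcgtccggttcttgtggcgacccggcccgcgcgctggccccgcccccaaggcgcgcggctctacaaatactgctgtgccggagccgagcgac
Id2: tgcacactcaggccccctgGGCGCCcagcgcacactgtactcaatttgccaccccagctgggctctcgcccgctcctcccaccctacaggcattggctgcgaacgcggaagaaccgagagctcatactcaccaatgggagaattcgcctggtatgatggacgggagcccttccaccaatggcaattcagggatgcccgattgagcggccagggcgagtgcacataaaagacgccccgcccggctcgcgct
Id3: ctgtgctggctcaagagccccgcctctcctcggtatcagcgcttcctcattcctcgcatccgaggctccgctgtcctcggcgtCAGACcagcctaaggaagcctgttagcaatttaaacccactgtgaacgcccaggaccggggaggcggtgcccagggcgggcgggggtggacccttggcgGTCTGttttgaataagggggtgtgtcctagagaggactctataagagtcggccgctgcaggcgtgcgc
Tgfbr1: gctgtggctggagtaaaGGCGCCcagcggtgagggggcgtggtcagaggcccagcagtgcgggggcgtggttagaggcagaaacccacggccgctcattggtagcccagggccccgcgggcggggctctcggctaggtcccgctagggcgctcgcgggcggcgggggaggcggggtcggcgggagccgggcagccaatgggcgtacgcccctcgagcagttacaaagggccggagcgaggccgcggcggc
Bmp8b: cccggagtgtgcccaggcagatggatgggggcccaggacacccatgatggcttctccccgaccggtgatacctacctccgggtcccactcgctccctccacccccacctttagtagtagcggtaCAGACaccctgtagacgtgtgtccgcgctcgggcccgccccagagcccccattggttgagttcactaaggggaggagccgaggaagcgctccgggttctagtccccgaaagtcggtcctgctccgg

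GGCGCC occurred in the windows of Id4, Id2 and Tgfbr1, and in 9 of the 41 (22%), against 9.59% of all 32851 RefSeq windows of the same length. CAGAC or GTCTG occurred in the windows of Id3 and Bmp8b, and in 17 of the 41 (41.5%), against 42.2% of all windows. The 41 hold 1 start per gene, while the 32851 hold every start. GGCGCC consists of G and C only, and the GC content of the 41 was not compared with that of all windows. GC content of the printed windows was 75.6% for Id4, 62.8% for Id2, 62.8% for Id3, 74.8% for Tgfbr1 and 65.2% for Bmp8b. Id4 and Id2 each held 1 GGCGCC, although Id4 was called and Id2 was not. A match describes letters in this window and is not evidence of binding.

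Beyond the 58 genes, 53 further pathway genes were in the files, including nodal and its antagonists, latent TGF-beta binding proteins, repulsive guidance molecules, Smad ubiquitin ligases and matrix targets. Of the 51 tested, 2 fell and none rose, 3.92% against 4.25% of all genes, with a median log2 fold change of -0.15. At an unadjusted p under 0.05, 11 were lower and 2 higher with edgeR, against 2535 lower and 2150 higher of all 25561 genes tested. DESeq2 called none of those it gave an adjusted p. With DESeq2 4 of the 51 passed unadjusted, where 6.90% of all genes did. Kcp, a secreted chordin-like protein that enhances BMP signalling, had 232 and 174 counts in FGR, against 363 in WT, and averaged 3.90 ± 0.14 CPM in FGR (SD, n = 2) and 6.74 CPM in WT. The log2 fold change was -0.79 ± 0.16 (edgeR adjusted p = 0.0143; DESeq2 0.247). Ltbp4, which binds latent TGF-beta1 in elastic matrix, had 8.86 and 8.53 CPM in FGR, against 12.5 CPM in WT. A log2 fold change of -0.53 ± 0.14 was found (edgeR adjusted p = 0.0474; DESeq2 0.318). For both genes the FGR libraries were close together below WT.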

How the data were processed

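RNA of whole-tissue midbrain was sequenced after TruSeq library preparation, per the labels' protocols. The submitters' processing notes name HISAT2; its version, the counting tool, strand use, genome build and annotation were not given in the sources used here. The deposited tables hold raw read counts per gene, a gene length in bases and RPKM; the deposited RPKM equals count divided by length and library total to within 0.000498%. CPM was computed with TMM scaling. Genes were filtered with filterByExpr (minimum count 10) and FGR was compared with WT by edgeR 4.0.16 (limma 3.58.1, R 4.3.3) with glmQLFit and glmQLFTest and 1 residual degree of freedom, from the FGR pair. Dispersions were moderated over all genes tested. P-values were two-sided and adjusted over all genes tested; standard errors are the log2 fold change over the root of F, and log2 differences between libraries used a prior count of 2. DESeq2 1.42.0, limma-voom, a robust fit, other scalings and other filters were alternatives. The scripts were tested on simulated data. Precision is set by depth and by having 2 libraries against 1.

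The gene set, the role groups and the 12 lists were chosen with earlier results of these data known. Full statistics are given for called genes, the most abundant gene of each role by mean RPKM, and tested genes with a mean of at least 1 CPM and an absolute log2 fold change of at least 0.5; of the further pathway genes, those called are named. The other genes are named once with their values, except 1 antagonist gene that is not reported here, and the statistics of Gdf5, Gdf10, Chrd, Smad1, Tgfbr2, Bmpr2 and Id1 to Id3, the overlapping genes and the genes plotted were chosen after their values were seen.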

Additional observations from a re-analysis of the deposited data

How the results depend on the processing

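Counts of calls moved with the method. Over the whole table edgeR called 1087 genes (424 higher and 663 lower in FGR), DESeq2 357 (124 and 233), edgeR with no filter 2057 (695 and 1362) and with the stricter filter 455 (153 and 302); with library totals 1027 were lower, 24.4% of the calls being higher against 39.0% with TMM. Of the signalling genes 4 were called (3 higher, 1 lower), against 0 with DESeq2, 0 with the stricter filter and 8 with no filter, of which 6 were lower. With 5 calls each, library totals and limma-voom gave 1 higher and 4 lower, DESeq2 size factors 3 lower and the robust fit 2 lower. Of the further pathway genes 2 were called, all lower, against 0 with DESeq2, 0 with the stricter filter, 4 with DESeq2 size factors, 5 with library totals and 6 with no filter. The cause of these shifts was not tested. Smad2 changed sign with library totals (-0.014) and without FGR replicate 1 (-0.021). Leaving out an FGR replicate leaves 1 library per group and so gives log2 fold changes with no test; the median of the signalling genes was then between -0.086 and -0.054, against -0.076 with both. Single genes moved more: Bmp7 lay between -1.255 and -0.423 (-0.785 with both), Tgfb3 between -0.839 and -0.408 (-0.615), Acvr2a between 0.085 and 0.274 (0.188) and Inha between 0.034 and 0.071 (0.057). No paired analysis was possible because the labels pair no WT library with an FGR library. A shared replicate number does not make a pair. With 1 WT library, WT variation was not measured.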
